A study of Rattus norvegicus with 6 samples.

Results

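The genes described here are 9 core proteins and partners of the chondroitin sulfate matrix that forms around a spinal cord lesion. They were chosen by symbol and not by level, though with earlier results of these data known, and are 9 of the 17648 gene rows of the expression matrix. VCAN (versican), BCAN (brevican), NCAN (neurocan) and ACAN (aggrecan) are the lecticans, the hyaluronan-binding chondroitin sulfate proteoglycans. HAPLN1 encodes the link protein that fixes lecticans to hyaluronan, and CSPG5 a membrane proteoglycan also called neuroglycan C. TNC and TNR are the tenascins, multimeric glycoproteins that bind lecticans. PTPRZ1 is a receptor phosphatase that itself carries chondroitin sulfate and whose secreted form is phosphacan.

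The RNA was extracted from neurons of the spinal cord that had been taken from newborn (neonatal) Sprague-Dawley rats and cultured for 3 days with cytarabine to limit dividing cells. There were 3 Glu + siR-Con libraries, given a control siRNA, a small interfering RNA, and 3 Glu + siR-GAL3 libraries, transfected with an siRNA against GAL3, the lectin galectin-3 encoded by LGALS3. The study's methods and the dataset's design text give both groups glutamate as the injury, which in the methods was 10 μM for 1 h followed by 16 h without it. The treatment labels instead give saline to the siR-Con libraries and call the siR-GAL3 libraries a knockout. If those labels were right, glutamate and the siRNA could not be told apart. The groups are used here as the methods describe them, and the methods speak of independent experiments in general, without saying of these libraries whether they came from separate cultures. The p-values therefore measure the spread between these libraries, which may be technical. It is the spread left after the authors had corrected differences within groups, which may have narrowed it. How far this changed the spreads and p-values given below is unknown.

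After spinal cord injury, reactive astrocytes and oligodendrocyte progenitors deposit lecticans in the glial scar. Their chondroitin sulfate chains act on receptors such as PTPRS and are a known barrier to axon growth, and tenascin-R with brevican and neurocan also builds the perineuronal nets of the uninjured cord. These molecules are chiefly glial products, although neurons also make neurocan and neuroglycan C.

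The values are on a linear scale derived from FPKM, per length of gene, which the authors had corrected for batch effects and for differences within groups. They are called expression values below. How deeply each library was sequenced is unknown, and 3.86% of all values lie below 0. Exactly equal values divide the libraries into 3 sets, with siR-Con and siR-GAL3 replicates 1 in the first, siR-Con replicates 2 and 3 with siR-GAL3 replicate 3 in the second, and siR-GAL3 replicate 2 alone. None of the 9 genes shared a value between libraries. The first principal component, with 65.2% of the variance, set siR-GAL3 replicate 2 at 27.9 and the other 5 libraries between -8.5 and -1.9. The fold changes of the tested matrix genes and the medians of the gene lists are therefore also given without that library.

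LGALS3 lay at 77.4, 54.4 and 62.4 in siR-Con replicates 1 to 3 and at -1.64, 32.3 and 18.5 in siR-GAL3 replicates 1 to 3. The groups did not overlap, lower in siR-GAL3, as did 10.3% of the 8495 genes tested, and replicate 2 kept the highest LGALS3 value of the siR-GAL3 group. The value below 0 is no level of RNA, and was set to 0 for the log2 scale. The log2 fold change of LGALS3 was -2.91 (95% interval -5.75 to -0.065, limma adjusted p = 0.571). The label of neurons was checked against marker genes. The astrocyte filament gene GFAP averaged 655 ± 94.6 (SD, n = 3) and the myelin gene MBP 656 ± 31.6 in siR-Con, against 17.4 ± 1.36 for MAP2 and 0.396 ± 0.0172 for RBFOX3, the gene of the neuronal nuclear antigen NeuN. GFAP and MBP were the most abundant of the markers examined, in libraries labelled as neurons, while other glial markers such as ALDH1L1 (3.58 ± 0.226) and MOG (3.74 ± 0.374) lay below MAP2.

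Of the 9 genes, 7 averaged 1 or more in the matrix and were tested, while ACAN and HAPLN1 did not reach that level. All 7 had a mean log2 level below that of siR-Con, and their median log2 fold change was -0.43, against 0.00 over the 8495 genes tested. No gene of the 7 passed an adjusted p of 0.05 in limma with all 6 libraries, where the background was 0.0% of the genes tested. At an unadjusted p under 0.05, BCAN and NCAN were lower, and 361 of the 8495 genes were lower at this threshold, which is 4.25%. With a log2 fold change below -1 required as well, the background was 0.0589% and none of the 7 genes passed. BCAN, NCAN, PTPRZ1 and TNC did not overlap between the groups, lower in siR-GAL3, as did 10.3% of the genes tested.

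**Figure D1:**
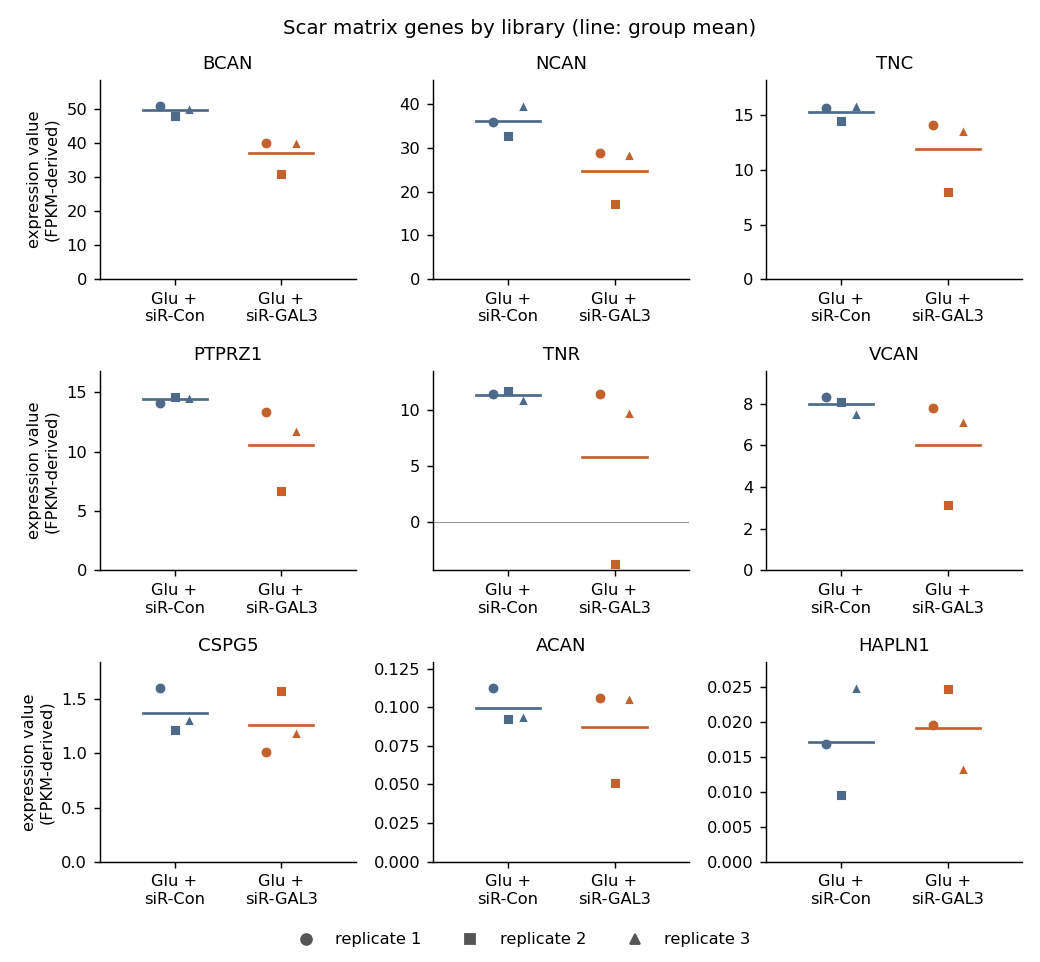
Expression value (linear scale derived from FPKM, 1 vertical axis per gene) of the 9 genes in each of the 3 Glu + siR-Con and 3 Glu + siR-GAL3 libraries; symbols stand for replicates and lines for group means. BCAN, NCAN, PTPRZ1 and TNC do not overlap between groups, and the siR-GAL3 square, replicate 2, is the lowest point for each tested gene but CSPG5.

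Brevican, the lectican most restricted to the central nervous system, was the most abundant of the 9 genes in every library. BCAN stood at 51.1, 48.1 and 50.3 in siR-Con and at 40.3, 31.0 and 40.2 in siR-GAL3. All siR-GAL3 values lay below all siR-Con values, and replicates 1 and 3 lay close together at 80.8% and 80.6% of the siR-Con mean, with replicate 2 at 62.3%. The mean went from 49.8 ± 1.56 to 37.2 ± 5.30 (SD, n = 3 each), 25.4% lower. The log2 fold change on log2(value + 1) was -0.42 (SE 0.11, 95% interval -0.69 to -0.16, limma adjusted p = 0.333).

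Without siR-GAL3 replicate 2, BCAN was lower by less but past the threshold, with a log2 fold change of -0.30 and a limma adjusted p of 0.0362. In that fit 80 of 8495 genes were lower with an adjusted p under 0.05, which is 0.942%. BCAN was the only one of the 7 among them. Within the first library set the difference was -0.34 and within the second -0.29 on the log2 scale. Fitting the library set as a block gave -0.31 with a limma adjusted p of 0.0685. As siR-GAL3 replicate 2 is alone in its set, this block and both differences within sets rest on the other libraries alone. They are not independent of the fit without that library.

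Neurocan, the lectican made during development and again after injury, was the next most abundant gene in every library. NCAN stood at 35.9, 32.6 and 39.5 in siR-Con and at 28.8, 17.1 and 28.2 in siR-GAL3. The groups again did not overlap, and the siR-GAL3 libraries reached 80.0%, 47.4% and 78.4% of the siR-Con mean. The mean went from 36.0 ± 3.45 to 24.7 ± 6.62 (SD, n = 3 each), 31.4% lower, with a log2 fold change of -0.56 (SE 0.20, 95% interval -1.03 to -0.09, limma adjusted p = 0.517). Without siR-GAL3 replicate 2 it was -0.32 (limma adjusted p = 0.0976). The differences within the first and second library sets, which leave that library out as well, were -0.31 and -0.34.

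Versican, the widely expressed lectican of progenitors and early matrix, was far less abundant. VCAN stood at 8.32, 8.07 and 7.51 in siR-Con and at 7.78, 3.14 and 7.11 in siR-GAL3. The groups overlapped, since siR-GAL3 replicate 1 lay above siR-Con replicate 3, and replicate 2 was at 39.4% of the siR-Con mean. The log2 fold change was -0.43 (SE 0.27, 95% interval -1.07 to 0.21, limma adjusted p = 0.597), and -0.09 (limma adjusted p = 0.534) without siR-GAL3 replicate 2. Aggrecan, the lectican of cartilage and perineuronal nets, was listed at 0.112, 0.0922 and 0.0937 in siR-Con and at 0.106, 0.0508 and 0.106 in siR-GAL3. These values overlap and were too low to be tested. BCAN averaged 501 times the ACAN value in siR-Con.

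The lecticans share their hyaluronan-binding and lectin-like ends, so their values were also added. The sum of VCAN, BCAN, NCAN and ACAN was 95.4, 88.9 and 97.4 in siR-Con and 77.0, 51.3 and 75.6 in siR-GAL3. The groups did not overlap (93.9 ± 4.46 against 68.0 ± 14.5, SD, n = 3 each, two-sided exact permutation p = 0.1, the smallest that 3 against 3 allow). Brevican made up 53.6%, 54.1% and 51.6% of the sum in siR-Con and 52.3%, 60.5% and 53.1% in siR-GAL3. These shares overlapped, as did those of neurocan, which lay between 36.7% and 40.6% in siR-Con and between 33.3% and 37.4% in siR-GAL3. The exact permutation p was 0.7 for the brevican share and 0.4 for the neurocan share.

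**Figure D2:**
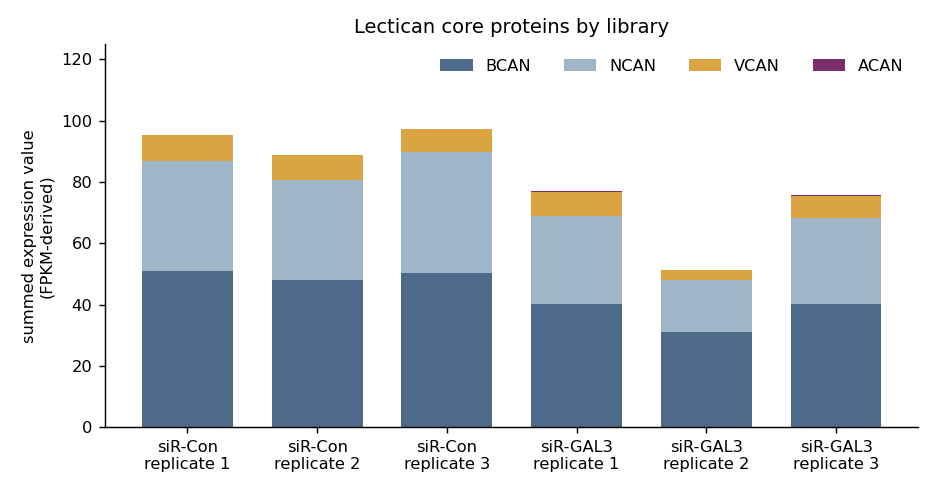
Expression values (linear scale derived from FPKM) of the 4 lecticans stacked for each of the 6 libraries; ACAN, at about 0.1, is too low to be seen. The sum lies between 88.9 and 97.4 in siR-Con and between 51.3 and 77.0 in siR-GAL3, and BCAN and NCAN fill most of each bar.

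The sequences before the transcription start are shown for 3 lecticans and a tenascin, in the part that lies outside the annotated gene, because these genes span levels from abundant to nearly absent. RefSeq (rat build GRCr8) had a window of 250 bases before a start for 7 of the 9 genes, and PTPRZ1 and CSPG5 were without an entry. Of these windows, those of BCAN and TNR lay wholly inside the annotated gene, and so did 66 bases of the TNC window and 98 of the second of 2 VCAN windows. The sequences run 5′ to 3′ towards the start, the TNC stretch ends 66 bases before it, and capitals mark matches to the GC box GGGCGG or to TATAAA on either strand. The build of the expression files is not given in the sources used here.
NCAN chr16:19335657-19335906, plus strand: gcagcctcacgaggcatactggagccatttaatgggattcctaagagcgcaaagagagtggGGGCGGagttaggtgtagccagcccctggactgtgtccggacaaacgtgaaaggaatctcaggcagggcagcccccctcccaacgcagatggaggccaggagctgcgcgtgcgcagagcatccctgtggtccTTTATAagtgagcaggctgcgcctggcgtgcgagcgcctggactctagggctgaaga
VCAN chr2:22595956-22596205, minus strand: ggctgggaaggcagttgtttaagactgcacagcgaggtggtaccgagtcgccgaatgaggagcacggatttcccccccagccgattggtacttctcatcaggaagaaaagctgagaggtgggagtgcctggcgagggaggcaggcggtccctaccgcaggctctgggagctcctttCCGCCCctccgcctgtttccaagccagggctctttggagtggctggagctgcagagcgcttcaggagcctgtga
ACAN chr1:142390701-142390950, plus strand: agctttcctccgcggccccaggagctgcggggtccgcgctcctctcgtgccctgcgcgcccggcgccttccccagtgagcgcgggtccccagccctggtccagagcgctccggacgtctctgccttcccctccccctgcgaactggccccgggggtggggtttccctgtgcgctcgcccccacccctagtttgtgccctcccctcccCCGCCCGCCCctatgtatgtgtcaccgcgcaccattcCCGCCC
TNC chr5:82476198-82476381, minus strand: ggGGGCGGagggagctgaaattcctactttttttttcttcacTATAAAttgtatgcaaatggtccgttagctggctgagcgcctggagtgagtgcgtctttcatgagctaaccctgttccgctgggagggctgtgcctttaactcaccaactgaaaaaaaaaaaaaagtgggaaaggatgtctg

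NCAN held a GC box whose first base was 189 bases before the start and a TATAAA at 57, and TNC held them at 248 and 208. ACAN held 3 GC boxes, at 43, 39 and 6 bases, in a window of 73.6% G and C. VCAN held 1 GC box, the same site in both of its 2 overlapping windows, and BCAN 1 at 95 bases. The GC box was thus in 6 of the 8 windows of these genes, with the VCAN site counted in both its windows and those inside a gene included. It was in 30.5% of all 33469 windows of the same length. TATAAA was in 2 of the 8 windows and in 12.9% of all. The AP-1 motif TGANTCA, in 6.34% of all windows, and the STAT motif TTCNNNGAA, in 7.67%, matched none of the 8. The SOX motif ACAAAG, in 16.3% of all, matched that of HAPLN1 alone. Neither a match nor its absence says that a factor binds or does not, and all 3 lecticans printed hold a GC box although their levels lie far apart.

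HAPLN1 was close to 0 in each library, at 0.0169, 0.00957 and 0.0249 in siR-Con and at 0.0196, 0.0248 and 0.0132 in siR-GAL3. These values overlapped and were not tested, and the other link protein genes, HAPLN2, HAPLN3 and HAPLN4, also had means below 1.

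CSPG5 stood at 1.60, 1.22 and 1.30 in siR-Con and at 1.02, 1.57 and 1.19 in siR-GAL3. It was the one tested gene of the 7 that was not lowest in siR-GAL3 replicate 2, where it reached 115% of the siR-Con mean. The log2 fold change was -0.08 (SE 0.11, 95% interval -0.33 to 0.18, limma adjusted p = 0.751). It was -0.17 without siR-GAL3 replicate 2 and 0.003 without siR-GAL3 replicate 1.

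Tenascin-C, which is low in the mature cord and induced in reactive astrocytes, was the more abundant tenascin. TNC stood at 15.6, 14.5 and 15.9 in siR-Con and at 14.1, 7.96 and 13.6 in siR-GAL3. The groups did not overlap, but the gap between siR-Con replicate 2 and siR-GAL3 replicate 1 was small and only replicate 2, at 52.0% of the siR-Con mean, lay far below. The mean went from 15.3 ± 0.748 to 11.9 ± 3.41 (SD, n = 3 each), 22.4% lower, with a log2 fold change of -0.38 (SE 0.20, 95% interval -0.84 to 0.09, limma adjusted p = 0.585). Without siR-GAL3 replicate 2 the log2 fold change was -0.14 (limma adjusted p = 0.294).

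Tenascin-R, a product of oligodendrocytes and some neurons, stood at 11.5, 11.8 and 10.9 in siR-Con and at 11.5, -3.75 and 9.77 in siR-GAL3. The value below 0 in replicate 2 is no level of RNA, and was set to 0 for the log2 scale. The log2 fold change of TNR of -1.27 (SE 0.90, 95% interval -3.40 to 0.85, limma adjusted p = 0.614) rests on it, and without that library it was -0.10. In siR-GAL3 replicate 1 TNR was at 101% of the siR-Con mean.

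PTPRZ1, whose ectodomain binds tenascins, contactin and pleiotrophin, stood at 14.1, 14.6 and 14.5 in siR-Con and at 13.3, 6.70 and 11.7 in siR-GAL3. The groups did not overlap, and the siR-GAL3 libraries reached 92.6%, 46.5% and 81.4% of the siR-Con mean. The log2 fold change was -0.46 (SE 0.22, 95% interval -0.97 to 0.06, limma adjusted p = 0.585), and -0.19 (limma adjusted p = 0.194) without siR-GAL3 replicate 2. The gene-level values do not separate the receptor from phosphacan.

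**Figure D3:**
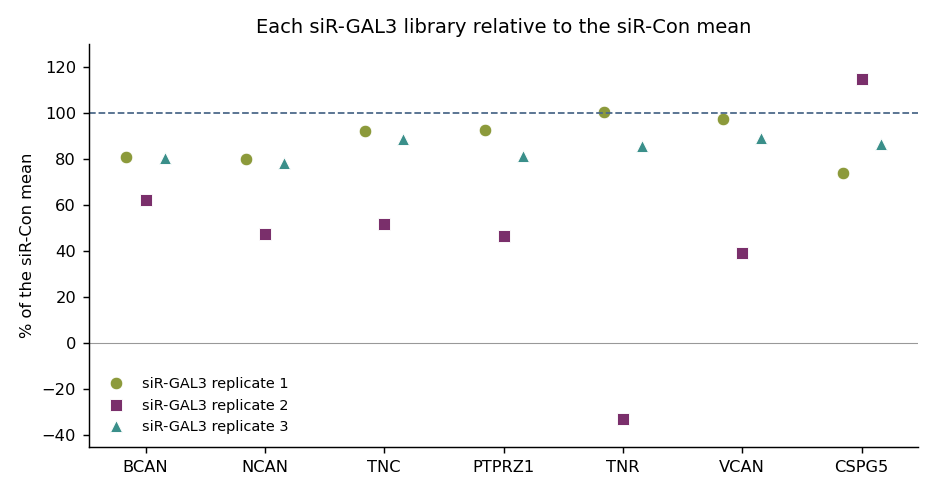
Expression value of the 7 tested genes in each siR-GAL3 library as a percentage of the mean of the 3 siR-Con libraries (dashed line at 100%). Replicate 2 lies between 39.4% and 62.3% for BCAN, NCAN, PTPRZ1, TNC and VCAN, below 0 for TNR and at 115% for CSPG5, and replicates 1 and 3 lie near 80% for BCAN and NCAN.

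The size of the difference therefore varied among the 3 siR-GAL3 libraries. In replicate 2, 6 of the 7 genes lay more than 0.5 below the siR-Con mean on the log2 scale, and 758 of the 8495 genes tested, 8.92%, did so. None did in replicate 1 or replicate 3, where the share of all genes tested was 0.212% and 0.365%. The median log2 difference of the 7 genes was -0.11 in replicate 1, -1.0 in replicate 2 and -0.20 in replicate 3. In replicate 1, 6 of the 7 were below the siR-Con mean, and in replicate 3 all 7. Replicate 2, with the highest LGALS3 value of its group, held the lowest values of 6 of the 7 genes, and of 35.1% of all genes tested. Without it, the median log2 fold change was -0.17 and BCAN, NCAN, PTPRZ1 and TNC had an unadjusted p under 0.05, lower, as had 9.36% of all genes tested. With the library set as a block, where replicate 2 likewise adds nothing to the group difference, BCAN, NCAN and PTPRZ1 did, against a background of 7.9%. Without siR-Con replicate 1, and likewise without siR-Con replicate 3, BCAN alone of the 7 had an unadjusted p under 0.05, against backgrounds of 3.1% and 1.72%. Without siR-GAL3 replicate 1, BCAN, NCAN, PTPRZ1 and TNC did, lower, against 6.87%.

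**Figure D4:**
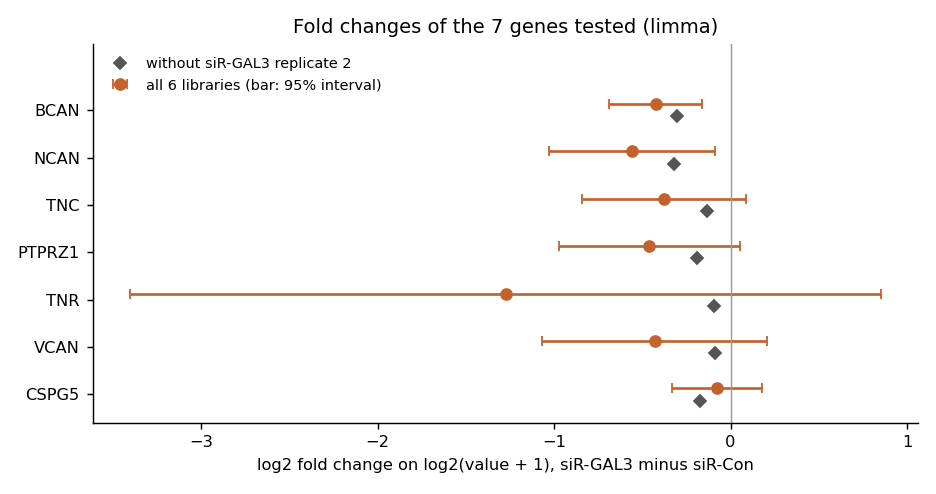
Log2 fold change (siR-GAL3 minus siR-Con, on log2(value + 1), limma) of the 7 tested genes, with 95% intervals over all 6 libraries (circles) and the value without siR-GAL3 replicate 2 (diamonds). The intervals of BCAN and NCAN lie below 0 and the other 5 include it, and each diamond but that of CSPG5 lies nearer to 0 than its circle.

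The order of the mean levels, per length of gene, was BCAN followed by NCAN, which was followed by TNC, PTPRZ1, TNR, VCAN, CSPG5, ACAN and HAPLN1. TNC and PTPRZ1 overlapped in both groups. PTPRZ1, TNR and VCAN were separated in siR-Con but overlapped in siR-GAL3, where the value of TNR in replicate 2 lay below 0. Across the 6 libraries, which share the group difference and the low replicate 2, Pearson's r on the log2 scale between the 6 tested genes other than CSPG5 lay between 0.84 and 0.99. Over the 5 libraries without replicate 2, r was 0.93 for BCAN with NCAN and 0.97 for NCAN with TNC, and it ranged down to 0.33, for NCAN with TNR.

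Among the 2546 genes outside the gene lists with a mean of at least 5, those most like BCAN over the 6 libraries were the synaptic adhesion gene NRXN2 (Pearson's r = 0.996), the exchange factor gene ARHGEF4 (0.992) and CDC42 (0.990). These are the highest of many values over few libraries, and without siR-GAL3 replicate 2 they were 0.991, 0.983 and 0.968 over 5 libraries. CDC42, the small GTPase that the title of the dataset names beside GAL3, averaged 71.4 ± 0.305 in siR-Con and 63.3 ± 3.70 in siR-GAL3 (SD, n = 3 each). Its log2 fold change was -0.17, with a limma adjusted p of 0.568, and -0.12 without siR-GAL3 replicate 2. Among the genes most like NCAN were the actin cross-linker FLNC (r = 0.995) and the volume-regulated channel subunit LRRC8A (0.989), with 0.979 and 0.943 without siR-GAL3 replicate 2. FLNC averaged 7.0 ± 0.429 in siR-Con and 4.73 ± 1.18 in siR-GAL3.

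Other genes of the same matrix were taken from 7 lists, and none of their genes passed an adjusted p of 0.05 in limma with all 6 libraries. Of the other core proteins, link proteins and tenascins, 3 of 11 were tested, 1 higher and 2 lower, with a median log2 fold change of -0.19, or -0.145 without siR-GAL3 replicate 2. SPOCK2, the proteoglycan testican-2, stood at 3.20, 3.27 and 3.42 in siR-Con and at 2.74, 1.56 and 2.31 in siR-GAL3. SPOCK2 was the 1 gene of this list with an unadjusted p under 0.05, lower, as were 4.25% of all genes tested. Its groups did not overlap, and its log2 fold change of -0.44 (limma adjusted p = 0.440) became -0.29 (limma adjusted p = 0.0755) without siR-GAL3 replicate 2. CD44, the hyaluronan receptor, averaged 18.4 ± 1.95 and 15.9 ± 1.12 (SD, n = 3), and the groups overlapped. CSPG4, the NG2 proteoglycan of oligodendrocyte progenitors, lay between 0.584 and 0.693 in 5 libraries and at 0.193 in siR-GAL3 replicate 2.

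The enzymes that build and modify chondroitin sulfate had median fold changes close to 0. Of the chain synthesis genes 8 of 12 were tested, 2 higher and 6 lower, none with an unadjusted p under 0.05, and their median log2 fold change was -0.03 with and without siR-GAL3 replicate 2. The chondroitin synthase gene CHSY1 averaged 4.02 ± 0.278 and 3.61 ± 0.0365, a log2 fold change of -0.12. Of the sulfation, epimerization and breakdown genes 12 of 19 were tested, 5 higher and 7 lower, with a median of -0.05, or -0.01 without siR-GAL3 replicate 2. DSE, the epimerase that turns chondroitin into dermatan sulfate, was the 1 gene of this list with an unadjusted p under 0.05, and it was higher, as were 4.41% of all genes tested at this threshold. It averaged 0.971 ± 0.0257 and 1.24 ± 0.0865 (log2 fold change 0.19, limma adjusted p = 0.429, and 0.17 without siR-GAL3 replicate 2). CHST11, a chondroitin 4-sulfotransferase, lay between 2.34 and 2.69 in 5 libraries and at 0.0925 in siR-GAL3 replicate 2. HEXA, a lysosomal hexosaminidase subunit and the most abundant of the list, averaged 13.8 ± 0.790 and 13.1 ± 0.494.

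For hyaluronan, 5 of 10 genes were tested, 2 higher and 3 lower, none with an unadjusted p under 0.05, and their median log2 fold change was -0.01, or -0.09 without siR-GAL3 replicate 2. The 3 synthases HAS1, HAS2 and HAS3 were below the level tested. HYAL1, a lysosomal hyaluronidase, did not overlap between the groups and had a log2 fold change of -0.29 (limma adjusted p = 0.590), which was -0.10 without siR-GAL3 replicate 2.

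Of the receptors and binding partners of the matrix, 12 of 18 were tested, 10 lower and 2 higher, with a median log2 fold change of -0.27, or -0.08 without siR-GAL3 replicate 2. The neuronal adhesion gene NRCAM, at 8.19, 7.76 and 8.32 in siR-Con and 6.89, 5.39 and 6.75 in siR-GAL3, was the 1 gene with an unadjusted p under 0.05 (log2 fold change -0.31, limma adjusted p = 0.437, and -0.22 with 0.0856 without siR-GAL3 replicate 2). At this unadjusted threshold, 4.25% of all genes tested were lower. PTPRS, the phosphatase receptor for chondroitin sulfate chains, stood at 9.58, 9.35 and 9.52 in siR-Con and at 8.71, 4.47 and 8.76 in siR-GAL3. Its groups did not overlap, and its log2 fold change was -0.38 (limma adjusted p = 0.590), or -0.11 without siR-GAL3 replicate 2. PTN, the PTPRZ1 ligand pleiotrophin and the most abundant of the list, stood at 80.4, 81.9 and 83.8 in siR-Con and at 83.8, 98.7 and 86.4 in siR-GAL3. PTN was thus highest in siR-GAL3 replicate 2, where PTPRZ1 was lowest. Of the 8495 genes tested, 3527 were highest in that outlying library and 35.1% were lowest. A relation between PTN and PTPRZ1 was not tested. MDK, the related ligand midkine, had a log2 fold change of -0.22 (limma adjusted p = 0.626) with all 6 libraries and of -0.42 (limma adjusted p = 0.0236) without siR-GAL3 replicate 2, where it was highest at 10.5. Without that library 0.942% of the genes tested were lower with an adjusted p under 0.05 in limma.

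Of the proteases that cleave lecticans and their inhibitor, 4 of 8 were tested, 1 higher and 3 lower, with a median log2 fold change of -0.13, or -0.03 without siR-GAL3 replicate 2. ADAMTS9, a versican- and aggrecan-cleaving protease, averaged 2.35 ± 0.322 and 1.80 ± 0.202 and had an unadjusted p under 0.05, lower, as had 4.25% of all genes tested (log2 fold change -0.26, limma adjusted p = 0.529, and -0.25 without siR-GAL3 replicate 2). The brevican-cleaving ADAMTS4, the most abundant of these, averaged 5.83 ± 0.233 and 5.96 ± 0.428.

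Among the regulators known to act on scar matrix genes, 11 of 12 were tested, 2 higher and 9 lower, with a median log2 fold change of -0.10, or -0.035 without siR-GAL3 replicate 2. At an unadjusted p under 0.05, 3 were lower, as were 4.25% of all genes tested. TGFB2, a ligand of the TGF-beta family, which raises scar proteoglycans in astrocytes, averaged 8.26 ± 0.706 and 6.88 ± 0.310 (log2 fold change -0.23, limma adjusted p = 0.507, and -0.25 without siR-GAL3 replicate 2) and did not overlap. SMAD4, the shared partner of SMAD signalling, averaged 8.30 ± 0.277 and 6.44 ± 1.22 (log2 fold change -0.33, limma adjusted p = 0.535, and -0.19 without siR-GAL3 replicate 2). The glial transcription factor gene NFIB averaged 2.82 ± 0.256 and 1.87 ± 0.666 (log2 fold change -0.44, limma adjusted p = 0.549, and -0.23 without siR-GAL3 replicate 2). STAT3, a factor of reactive astrocytes and the most abundant of the list, averaged 9.13 ± 0.290 and 8.26 ± 1.29, and the groups overlapped.

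**Figure D5:**
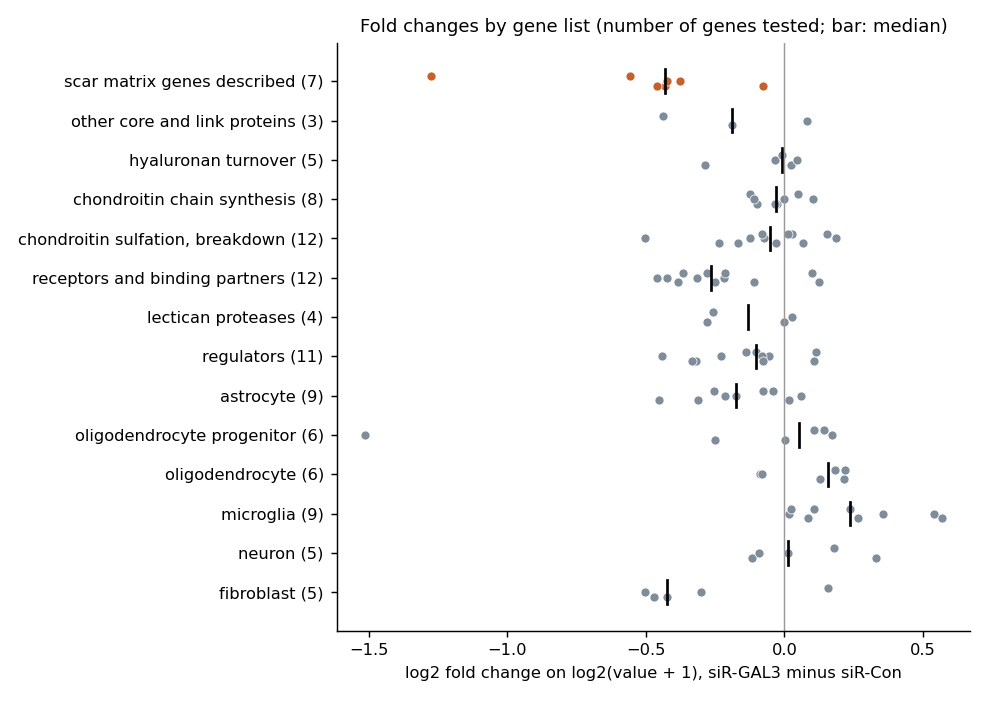
Log2 fold change (siR-GAL3 minus siR-Con, on log2(value + 1), all 6 libraries) of each tested gene, by list; black bars are list medians and numbers in brackets are genes tested. The median of the scar matrix genes is -0.43, those of chain synthesis and sulfation are -0.03 and -0.05, and that of the receptors and binding partners is -0.27.

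Markers of the cells that make this matrix and of other cell types were set beside these values, and none passed an adjusted p of 0.05 in limma with all 6 libraries. In bulk RNA, fewer cells of a type and less RNA per cell cannot be told apart. Of 9 astrocyte markers 7 were lower and 2 higher, and 4 were lower at an unadjusted p under 0.05, against 4.25% of all genes tested. Their median log2 fold change was -0.17, or -0.14 without siR-GAL3 replicate 2. GFAP averaged 524 ± 9.35 in siR-GAL3, and its groups did not overlap. The summed astrocyte markers lay between 932 and 1074 in siR-Con and between 806 and 871 in siR-GAL3. Most of this sum was GFAP, between 571 and 758 in siR-Con and between 515 and 533 in siR-GAL3. The sum therefore repeats the GFAP difference and does not speak for the other markers. AQP4, the next most abundant of them, overlapped between the groups. SLC1A3 and GJA1, astrocyte genes of glutamate uptake and gap junctions, were not lower, with log2 fold changes of 0.06 and 0.02. Of the oligodendrocyte progenitor markers 6 of 7 were tested, 2 lower and 4 higher, with a median of 0.05, or 0.15 without siR-GAL3 replicate 2, and none had an unadjusted p under 0.05. Their sum lay between 72.6 and 81.4 in siR-Con and at 82.1, 37.4 and 87.6 in siR-GAL3. The low sum of replicate 2 held a value of -7.25 for GPR17, which is no level of RNA. Of the 6 tested progenitor markers, 3 were lowest in that library and 1 was highest. SOX10 was at 16.3 there and between 20.05 and 24.4 in the other libraries. NKX2-2 was highest there, at 3.44, and OLIG1 was at 16.3, against a siR-Con mean of 14.9.

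Of the 5 fibroblast markers tested 4 were lower, 3 of them at an unadjusted p under 0.05 against 4.25% of all genes tested. Their median log2 fold change was -0.42, or -0.32 without siR-GAL3 replicate 2, and their sum lay between 43.1 and 50.6 in siR-Con and between 33.0 and 38.1 in siR-GAL3. All 9 tested microglia markers were higher, 4 with an unadjusted p under 0.05 against 4.41% of all genes tested. Their median was 0.24, or 0.28 without siR-GAL3 replicate 2, and their sum lay between 80.3 and 96.5 in siR-Con and between 100.5 and 120.0 in siR-GAL3. Without siR-GAL3 replicate 2, CD68, AIF1 and ITGAM were higher with an adjusted p under 0.05 in limma, as were 1.02% of all genes tested. Of the 6 oligodendrocyte markers 4 were higher and 2 lower, with a median of 0.16, or 0.15 without siR-GAL3 replicate 2, and their sum lay between 1033 and 1092 in siR-Con and between 1036 and 1354 in siR-GAL3. Of the neuron markers 5 of 10 were tested, 3 higher and 2 lower, with a median of 0.01, or 0.055 without siR-GAL3 replicate 2, and sums between 25.7 and 29.8 in siR-Con and between 23.9 and 28.9 in siR-GAL3. The endothelial markers CDH5 and KDR were below the level tested. With 1 library left out or the library set as a block, the neuron median lay between -0.025 and 0.055. That of the oligodendrocyte progenitor markers lay between -0.038 and 0.154, so both ranges included 0. Any part of the marker differences in the values of the 9 matrix genes was not tested.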

How the data were processed

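RNA from 6 libraries, 3 per group, was sequenced. According to the methods, the authors aligned reads with STAR, counted them with HTSeq and calculated FPKM, then removed batch effects, standardized the data and corrected differences within groups. The deposited values were of another scale than FPKM, since some lie below 0, and no sequencing depth or counting error can be given. The sources conflict on polyadenylated RNA selection against ribosomal depletion, and on the instrument. The genome build is not given in the sources used here.

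Values below 0 were set to 0 and log2(value + 1) was taken, which affected 24 tested genes. The planned unit was FPKM, and the planned test was kept. The 8495 genes that averaged 1 or more entered a limma fit (version 3.58.1, R 4.3.3) with a trend on intensity and Benjamini-Hochberg adjustment over all genes tested. Sums and shares were compared with exact permutation tests over the 20 assignments of libraries in Python 3.11.15. The fit was also run on simulated data for this comparison. Their noise was independent between libraries, so they held neither an outlying library nor library sets. Exactly equal values other than 0 defined the library sets. RefSeq windows were searched on both strands.

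The 9 genes and the lists were chosen with earlier results of these data known, as was the library set block. Named from the lists were up to 4 genes with the smallest p and the most abundant, not all reported. CSPG4, CHST11, MDK, HAS1 to HAS3 and some cell type markers were named after their values were seen. Alternatives were a pseudocount of 0.1, no filter or a mean of at least 5, median-ratio scaling, quantile normalization, no trend, a robust prior, no log, blocks, libraries left out, genes with values below 0 left out, and an adjusted p under 0.1.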

Additional observations from a re-analysis of the deposited data

How the results depend on the processing

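BCAN, NCAN, PTPRZ1, TNC and VCAN were lower in siR-GAL3 in 17 of 17 alternatives and TNR in 16 of 16, with CSPG5 lower in 15 of 16 and at 0.003 without siR-GAL3 replicate 1. These counts include alternatives that cannot alter the fold change of a gene. They are the filters, no trend, the robust prior, the replicate block and leaving out genes with values below 0. Their direction was fixed by the main fit and adds nothing to it. Over the alternatives on a log2 scale the fold change lay between -0.49 and -0.30 for BCAN, -0.68 and -0.32 for NCAN, -0.64 and -0.19 for PTPRZ1, -0.51 and -0.14 for TNC, -0.63 and -0.09 for VCAN and -2.35 and -0.10 for TNR, whose lower end came from a pseudocount of 0.1 on a value set to 0. Deviations from the group means correlated at -0.17, -0.07 and 0.04 between same-numbered libraries. The outlying siR-GAL3 replicate 2 weighs on the siR-GAL3 mean, so these values cannot decide whether the replicate numbers pair the libraries. The replicate block gave 6 genes with an adjusted p under 0.05 in limma against 0 without it, and 4 of the 7 matrix genes with an unadjusted p under 0.05 against 2. Of the 8495 genes tested, 543 had an unadjusted p under 0.05 with that block. The library set block, in which siR-GAL3 replicate 2 adds nothing to the group difference, gave 106 genes and 1174 at an unadjusted p under 0.05. With all libraries and no block, 736 had an unadjusted p under 0.05. An adjusted p under 0.1 called 7 genes. At an unadjusted p under 0.05, 1623 genes passed with no filter and 260 with a mean of at least 5. Leaving out 1 library at a time, the genes with an adjusted p under 0.05 numbered between 0 and 167 and those with an unadjusted p under 0.05 between 344 and 1388, the highest of both without siR-GAL3 replicate 2. Of the matrix genes, between 0 and 1 then had an adjusted p under 0.05 and between 1 and 4 an unadjusted one, with 1 without siR-Con replicate 1 or 3 and 4 without siR-GAL3 replicate 1 or 2. The cause was not tested. ACAN and HAPLN1 lay too low to be tested.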
